A study of Mus musculus with 37 samples.

Results

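Fully grown germinal vesicle (GV) oocytes that had lost the histone chaperone Hira during growth were compared with heterozygous oocytes of the same cross, over every gene with a mean of at least 1 FPKM in the 8 libraries. This rule kept 5792 of the 25053 genes listed, and the 8 libraries were 4 of Hira KO and 4 of Hira Het oocytes among the 37 samples of the series. FPKM here is reads per kilobase of the whole gene, introns included, and per 1000000 reads of the library, so levels of a gene can be set side by side between libraries, but levels of different genes only after division by exon length.

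Both genotypes were C57BL/6 and came from a conditional Hira allele, of which exons 6 to 7 are removed, crossed to Zp3-Cre, a transgene driven by a zona pellucida promoter that is active in growing oocytes. Deletion therefore takes place in the oocyte and not in the somatic cells of the follicle. Hira Het oocytes carried 1 deleted allele and are not wild type, and no wild-type GV library entered the comparison. Females were primed with PMSG, a gonadotropin that brings follicles to full size; their age, and how many females gave the oocytes of each library, are not given in the sources used here. The study's methods describe pools of 10 oocytes per library, while the labels speak of single cells. The p-values below therefore measure the spread between these libraries, which may be partly technical.

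Hira places the histone variant H3.3 into chromatin outside of DNA replication, together with its partners Ubn1 and Cabin1. An oocyte in prophase arrest does not replicate its DNA for a long time, and H3.3 is the main H3 form that it can renew. During growth it fills a store of maternal mRNA, coats and cytoplasmic lattices, and it falls silent in transcription before meiosis resumes, so the store carries the egg through maturation and fertilization.

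Reads assigned to the listed genes numbered 9592741 to 15082556 per Hira Het library and 8996898 to 10869870 per Hira KO library. Of the 5792 genes tested, 606 were higher in Hira KO (10.5%) and 417 were lower (7.20%) by limma on log2(FPKM + 1), at an adjusted p under 0.05 and a log2 difference beyond 1. All log2 differences below are Hira KO minus Hira Het on this scale, which understates changes of genes near 0 FPKM, and "rose" and "fell" refer to this test. Counts of lists and families below are to be read against the 10.5% higher and 7.20% lower of all genes tested. The median difference of all genes tested was -0.04. Equalising library medians in place of the authors' scaling moved that median to -0.19 and the calls to 471 higher and 627 lower, and scaling to the reads of the listed genes moved them to 0.076, 738 and 290, so higher genes made up 59.2% of calls, or 42.9% and 71.8% under the respective scalings. FPKM is relative within a library: fewer intact oocytes and less RNA per oocyte cannot be told apart. Of the 606 higher genes, 251 had a Hira Het mean under 1 FPKM and passed the filter through Hira KO, so they had to be higher; 56 lower genes passed through Hira Het in the same way. Among genes named below, Mt2, Ifi27l2a, Cldn6, Bex3, Usp17lb, Usp17lc, Id1, Id2, Fgf21, Nupr1, Cox4i2 and Ndufa4l2 passed only through Hira KO. So did Xaf1, Zrsr1, Tuba1a, Ctsl, Zfp82, Serpinb1a, Eif1a, Gm45007 and Gm15879, while Papolg passed only through Hira Het. The direction of these genes was fixed by the filter. Among the 4875 genes with both means at or above 1 FPKM, 355 were higher and 361 lower. The ranges of the 4 Hira KO and the 4 Hira Het values did not overlap for 2717 genes (46.9%). Lack of overlap is therefore common, and where it is given below it describes single genes and adds no test.

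The comparison addresses which stored transcripts of the grown oocyte differ once Hira is lost. The deleted gene itself could not check the labels. Hira (chromosome 16, 18877037 to 18970309, mm10) had 2 to 14 reads in Hira Het and 0 to 13 in Hira KO libraries, at most 0.012 FPKM in any of them. Markers of the oocyte were abundant in all libraries, with 14 of 15 tested and a summed level of 4085 to 4399 FPKM in Hira Het and 2839 to 3606 in Hira KO. Of 21 granulosa and cumulus markers listed 1 was tested, the protease inhibitor Serpine2, and 15 were under 0.1 FPKM; their summed level, most of it from Serpine2, was 6.47 to 9.22 in Hira Het and 4.65 to 7.61 in Hira KO. Other members lay the other way at low levels without overlap: Inha at 0.153, 0.071, 0 and 0.314 FPKM in Hira Het and 1.38, 1.53, 0.687 and 1.18 in Hira KO, and Ptgs2 at 0, 0.0475, 0.0515 and 0 against 0.235, 0.578, 0.68 and 0.143, as did Inhba and Fshr at up to 0.1 FPKM. Serpine2 was measured at 7.37, 8.48, 6.27 and 5.63 FPKM in Hira Het and 1.75, 3.01, 5.63 and 2.25 in Hira KO (-1.004, adjusted p = 0.009), a fall that missed the limit without Het 1 (-0.97), Het 2 (-0.91), KO 1 (-0.83) or KO 4 (-0.91). Of 5 blood markers listed, the macrophage gene Cd68 alone was tested, at 1.19, 1.4, 1.49 and 1.14 FPKM in Hira Het and 2.18, 3.88, 4.43 and 5.25 in Hira KO (1.06, adjusted p = 0.0019; 0.998 without KO 3 and 0.93 without KO 4, both short of the limit), and the sum of the list was 1.21 to 1.56 against 2.33 to 5.39. Theca and stroma markers summed to 0.0417 to 0.126 FPKM in Hira Het and 0.606 to 0.798 in Hira KO, and endothelial markers to 0.252 to 0.286 and 0.125 to 0.443. The part of these cells in the results below was not tested.

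Hira KO libraries were less alike than Hira Het libraries. Pearson's r over the genes tested was 0.974 to 0.990 between Hira Het libraries and 0.930 to 0.981 between Hira KO libraries, and 0.783 to 0.857 between KO 1 and the Hira Het libraries. The first principal component held 73.8% of the variance and separated the genotypes, and the second, with 12.5%, set KO 1 at one end and KO 2 and KO 3 at the other. The SD of a gene's log2 level between libraries had a median of 0.171 in Hira Het and 0.268 in Hira KO, and was larger in Hira KO for 76.3% of genes. Leaving out 1 Hira KO library put that median at 0.233 to 0.295, above the Hira Het value each time. An SD above 1 was reached by 4 genes in Hira Het and 65 in Hira KO.

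**Figure D1:**
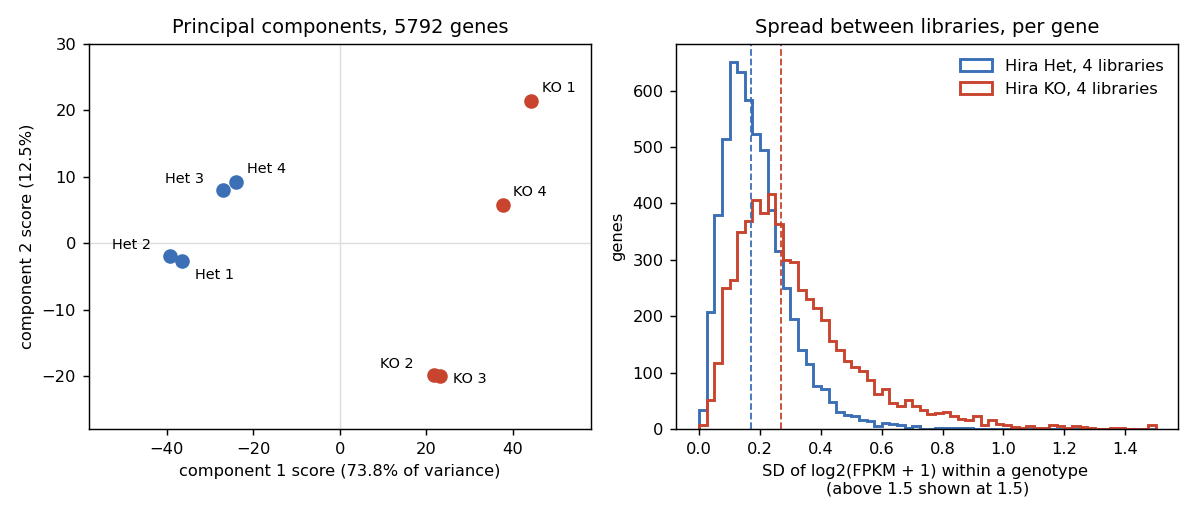
Left, scores of the 8 libraries on the first (x axis, 73.8% of variance) and second (y axis, 12.5%) principal component of log2(FPKM + 1) over 5792 genes, 1 point per library; right, histograms of the SD of each gene within Hira Het and Hira KO, with dashed lines at the medians of 0.171 and 0.268. The Hira Het points lie at negative first scores and the Hira KO points at positive ones, with KO 1 and KO 4 apart from KO 2 and KO 3 on the second.

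KO 1 was the most shifted library, in particular at the genes that fell. Across the 417 lower genes the median distance from the Hira Het mean was -1.61 in KO 1, -1.005 in KO 2, -1.10 in KO 3 and -1.39 in KO 4, and KO 1 was the lowest Hira KO library at 272 of them (65.2%, against 36.2% of all genes tested). Across the 606 higher genes the same medians were 1.65, 1.36, 1.40 and 1.59. The genes with the largest spread in Hira KO at a mean of at least 10 FPKM were Usp17lb, Gm36976, Fam46b, Gm44087 and Gm37724. Gm36976, a locus marked for experimental check in the annotation, showed this order in the extreme, at 551, 599, 333 and 343 FPKM in Hira Het and 46.2, 480.4, 398 and 126 in Hira KO (-1.26, adjusted p = 0.13). The lincRNA Gm37724 had 372, 436, 216 and 230.1 FPKM against 32.1, 289.6, 212 and 88.4 (-1.37, adjusted p = 0.079). In both, KO 2 lay within the Hira Het range, KO 3 within or just under it and KO 1 and KO 4 far under it, and both passed the limit without KO 2, at -1.72 and -1.81. Fam46b, which encodes a poly(A) polymerase, was measured at 27, 18.8, 9.55 and 11.6 FPKM in Hira Het and 2.34, 37.1, 14.1 and 5.21 in Hira KO (-0.66, adjusted p = 0.42), again with KO 1 and KO 4 lowest and KO 2 highest.

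Metallothioneins bind zinc and copper and are induced through metal response elements in their promoters. The largest spread in Hira Het was that of Mt1 (chromosome 8, 94179082 to 94180327), whose values split the Hira Het libraries into pairs: 1.79, 1.56, 569.7 and 632 FPKM for Het 1 to Het 4. Hira KO libraries held 903, 909, 1167 and 925 FPKM, all above every Hira Het library. The log2 difference of 4.60 had a standard error of 1.78 and an adjusted p of 0.053, and it passed the limit without Het 3 (5.88) or Het 4 (5.93). It also passed, at an adjusted p of 0.041 to 0.047 by limma, at a mean of at least 5 FPKM, on scaling to the reads of the listed genes, under quantile normalization, per exon length and with the replicate block. The neighbouring Mt2 (chromosome 8, 94172664 to 94173568) was far lower, at 0.238, 0, 0 and 0.0544 FPKM in Hira Het, of at most 3 reads, and 0.848, 2.62, 3.5 and 2.35 in Hira KO, of 12 to 42 reads (log2 difference 1.57, standard error 0.24, adjusted p = 0.00072). It did not follow the split of Mt1 among the Hira Het libraries. The 250 bases before each start are shown, 5′ to 3′ on the strand of the gene, with matches to the metal response element core TGCACNC or TGCGCNC, on either strand, in capitals. The window of Mt1 lies at chr8:94178839-94179088 and that of Mt2 at chr8:94172368-94172617, both on the plus strand (RefSeq, GRCm38.p6). They end at RefSeq starts, which differ from the gene starts given above. The Mt1 window runs past that gene start and the Mt2 window stops short of it, so their match counts are not of like windows.
Mt1: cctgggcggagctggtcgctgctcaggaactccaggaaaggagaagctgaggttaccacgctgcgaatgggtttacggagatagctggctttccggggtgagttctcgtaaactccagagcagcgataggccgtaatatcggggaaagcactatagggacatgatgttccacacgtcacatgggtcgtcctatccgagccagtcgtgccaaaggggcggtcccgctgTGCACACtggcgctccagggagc
Mt2: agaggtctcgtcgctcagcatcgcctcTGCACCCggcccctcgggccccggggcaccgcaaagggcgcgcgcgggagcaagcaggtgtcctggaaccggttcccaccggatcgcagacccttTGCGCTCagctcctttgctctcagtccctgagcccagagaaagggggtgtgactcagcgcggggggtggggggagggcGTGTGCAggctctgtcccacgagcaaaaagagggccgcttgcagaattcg
There was 1 match for Mt1 and 3 for Mt2. Such a core was in 21.4% of all 26794 promoters and 28% of those of the 3596 genes tested that had one, in 23.1% of those of higher genes and 28.5% of those of lower genes, and a match is a description and not a site.

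The most abundant transcripts were largely the same genes in both genotypes, and their order changed. Per exon length, 13 of the 20 highest genes were shared. These levels are scaled in each library to a total of 1000000 over the listed genes that have an exon length. Ubb, a polyubiquitin gene, ranked first in both, at 19857 ± 1185 on this scale (SD, n = 4) in Hira Het and 28779 ± 3215 in Hira KO. It took 1.24 to 1.54% of the reads of listed genes in a Hira Het library and 1.97 to 2.46% in a Hira KO library. Listed genes held on average 74.5% of the scaling total in Hira Het and 67% in Hira KO. H1foo, the linker histone of the oocyte, was second in Hira Het at 16476 ± 2882 and seventh in Hira KO at 8865 ± 1403; its log2 difference of -0.90 did not reach 1 with all libraries and was -1.02 without Het 3. Dppa3, which guards the maternal genome against loss of methylation, was at 11160 ± 1073 and 12544 ± 1262 per exon length (0.15, adjusted p = 0.37). The 20 genes with the most reads in a library held on average 11.4% of the reads of listed genes in Hira Het and 11.1% in Hira KO. The 100 with the most reads held 27% ± 0.911 and 25.5% ± 0.935 (SD, n = 4). For these 100 the two-sided exact permutation p was 0.0571, and 0.0816 after adjustment over 20 measures.

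Within the top ranks, members of the store moved in both directions. Dppa5a, an RNA-binding protein of pluripotent cells, stood at rank 55 in Hira Het and 10 in Hira KO, at 297, 237, 429.5 and 477 FPKM against 861, 809.7, 1013 and 1066 (log2 difference 1.42, standard error 0.22, adjusted p = 0.00071). Calm2, a calmodulin gene, went from rank 69 to 18, at 48.4, 53.7, 61.8 and 60.7 FPKM against 144, 101, 152 and 137 (1.22, adjusted p = 0.00023). In both genes each Hira KO library was above each Hira Het library. The anti-apoptotic Bcl2l10 fell, at 929, 995, 927 and 763 FPKM in Hira Het and 259, 405, 678 and 334 in Hira KO (-1.19, adjusted p = 0.0042; -0.99 without KO 1). Tcl1, a coactivator of Akt kinases, had 734, 751, 671 and 698 FPKM against 291, 393, 420.2 and 385, a difference of -0.95 that passed the limit without KO 3 (-1.01). The leucine-rich repeat gene E330021D16Rik dropped from rank 14 to 103 and Zbed3 from 15 to 97, and their values are given with their families below.

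**Figure D2:**
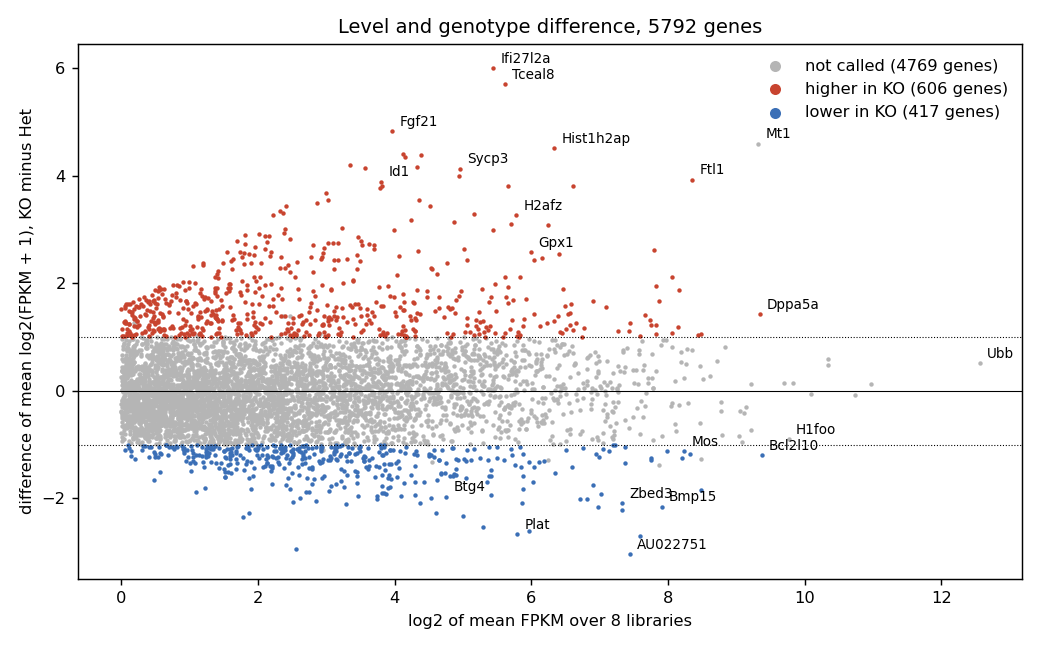
Difference of mean log2(FPKM + 1), Hira KO minus Hira Het (y axis), of each of the 5792 genes tested against log2 of its mean FPKM over the 8 libraries (x axis), with the 606 higher and 417 lower genes in colour and dotted lines at -1 and 1. Ftl1, Sycp3 and H2afz are among the labelled genes above the upper line and Bmp15 and Btg4 among those below the lower one, while Ubb and H1foo lie between the lines.

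Genes that oocytes use to build the follicle and the egg coat held more falls than rises. Among 14 tested genes of oocyte growth factors and transcription factors 1 rose and 4 fell, with a median difference of -0.74. Bmp15 (chromosome X, 6314107 to 6320721), a secreted growth factor that acts on granulosa cells, was measured at 336, 470.5, 455 and 305 FPKM in Hira Het and 58.1, 97.9, 131 and 71.2 in Hira KO (log2 difference -2.16, standard error 0.26, adjusted p = 0.00015). Its lowest Hira Het library was above its highest Hira KO library. Fgf8, which acts with Bmp15 on cumulus cells, had 19.2, 16.6, 14.6 and 16.8 FPKM against 4.96, 6.65, 7.93 and 6.45 (-1.25, adjusted p = 0.00016), also without overlap. Gdf9, the partner of Bmp15, had 324, 325, 335 and 355 FPKM against 106, 346, 261 and 160.0. KO 2 was within the Hira Het range of Gdf9 and KO 1 was the lowest, and the difference of -0.75 (adjusted p = 0.067) passed the limit only when KO 2 was left out (-1.02). Nobox, a homeodomain factor that activates oocyte genes, had 134, 124, 95.8 and 99.7 FPKM in Hira Het and 13.8, 68.1, 94.4 and 23.3 in Hira KO (-1.53, adjusted p = 0.031). The fall rested on KO 1 and KO 4, and the call was lost without Het 1, Het 2, Het 3, Het 4, KO 1 or KO 4, at values of -1.45, -1.48, -1.61, -1.59, -1.06 and -1.30. Figla, the activator of zona pellucida genes, went the other way, at 5.66, 5.57, 7.29 and 8.06 FPKM against 16.5, 12.5, 13.1 and 15.1 (1.01, adjusted p = 0.00056), a rise that was short of the limit without Het 1 (0.95), Het 2 (0.94), KO 1 (0.94) or KO 4 (0.98).

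The promoter of Bmp15, whose level was lower in each Hira KO library, is shown because Nobox binds TAATTG or TAATTA. It lies at chrX:6320725-6320974 on the minus strand (RefSeq, GRCm38.p6), and the capitals mark the 1 match.
Bmp15: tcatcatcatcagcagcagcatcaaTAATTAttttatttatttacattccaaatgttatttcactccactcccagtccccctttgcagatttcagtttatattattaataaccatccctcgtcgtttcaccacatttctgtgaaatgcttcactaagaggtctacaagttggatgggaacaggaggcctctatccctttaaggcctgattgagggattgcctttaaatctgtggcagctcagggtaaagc
Either run of letters, on either strand, was in 11.4% of all promoters and 7.34% of those of genes tested, in 10.3% of those of higher and 6.57% of those of lower genes.

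Of 9 tested genes of the egg coat none rose and 2 fell, with a median of -0.73. These were the secreted proteins Oosp1, at 24.9, 23.1, 31.5 and 31.3 FPKM in Hira Het and 7.75, 5.27, 5.06 and 7.61 in Hira KO (-1.96, adjusted p = 3e-05), and Oosp3, at 19.2, 19.9, 27.3 and 28.1 against 8.1, 4.29, 4.12 and 6.02 (-1.91, adjusted p = 0.00011). Their values did not overlap between the genotypes. The zona proteins themselves varied between Hira KO libraries: Zp3 was at 489, 508, 423 and 476 FPKM in Hira Het and 194, 400.2, 699 and 321 in Hira KO (-0.38, adjusted p = 0.34). Zp1 was at 172, 199.9, 137 and 148 against 31, 148, 289 and 64 (-0.75, adjusted p = 0.29; -1.27 and past the limit without KO 3). KO 1 was lowest and KO 3 highest in both, KO 3 above all Hira Het libraries.

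The subcortical maternal complex is a lattice under the oocyte membrane that the early embryo needs. Of 12 genes listed with it here, all tested, none rose and 5 fell, with a median of -0.86. Whether each listed gene, Khdc1b among them, is a subunit of the complex was not tested. Khdc1b had 265, 287, 265 and 237 FPKM in Hira Het and 39.7, 76.2, 57.1 and 54.7 in Hira KO (-2.23, adjusted p = 2.1e-05), and Zbed3, which acts in the position of the spindle and organelles, 298, 291, 240.1 and 208 against 40.5, 79.4, 65.5 and 58.5 (-2.09, adjusted p = 6.2e-05). Nlrp4f had 37, 50.03, 38.5 and 31.5 FPKM against 13.8, 14.4, 18.6 and 12.1 (-1.35, adjusted p = 0.00024). These 3 genes were lower in each Hira KO library than in any Hira Het library. Khdc3 fell at 399, 293, 301 and 383 against 98.3, 199, 185 and 163 FPKM (-1.12, adjusted p = 0.0027; -0.90 without KO 1). Tle6 was called at -1.30 (adjusted p = 0.042) although KO 2 lay among the Hira Het values, 118, 93.6, 84.8 and 91.5 FPKM against 16.3, 108, 48.3 and 25.2, and this call was lost without any 1 library but KO 2, at -1.40 to -0.90 (Het 1 -1.20, Het 2 -1.31, Het 3 -1.36, Het 4 -1.32, KO 1 -0.90, KO 3 -1.40, KO 4 -1.10). Ooep, the most abundant of the list, had 509, 462, 612 and 638 FPKM against 851, 481, 404 and 787, with the genotypes overlapping and a difference of 0.12 (adjusted p = 0.69) that took the other sign under median scaling (-0.023).

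Of 11 tested Nlrp genes, a family of oocyte proteins to which several lattice members belong, 2 fell and none rose. Besides Nlrp4f this was Nlrp4a, at 15.1, 19.5, 16.1 and 14.5 FPKM in Hira Het and 4.96, 4.71, 6.22 and 4.74 in Hira KO (-1.49, adjusted p = 3.6e-05). Nlrp14, the most abundant, was at 135, 172, 184 and 152 against 72.5, 97.8, 109 and 76.8, without overlap but with a difference of -0.86 that missed the limit. Of 6 tested Obox genes, homeobox genes of oocytes, 1 fell: Obox5, at 164, 180.2, 211 and 222 FPKM against 128, 86.9, 64 and 114 (-1.02, adjusted p = 0.0036), which was short of the limit without Het 3 (-0.97), Het 4 (-0.95), KO 2 (-0.97) or KO 3 (-0.83). Obox2, the most abundant of the family, had 481, 557, 666 and 743 against 721, 460.3, 306 and 572 FPKM (-0.30, adjusted p = 0.35).

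Genes of the oogenesin and Prame type, leucine-rich repeat genes in multicopy clusters, were split. Of 45 tested, taken by the form of their symbols, 5 rose and 8 fell, and per exon length 10 and 10 of 61. AU022751 had 382, 344, 249 and 242 FPKM in Hira Het and 16, 94.2, 36.1 and 27.8 in Hira KO (-3.04, adjusted p = 0.00048), and E330021D16Rik 223, 241, 178 and 183 against 46.1, 53.1, 36.3 and 45.7 (-2.16, adjusted p = 9.4e-06). In the opposite direction, the unprocessed pseudogene Gm13058 had 14.7, 19.95, 29.3 and 35.1 against 187, 113, 128 and 149.9 (2.54, adjusted p = 7.4e-05). No value of these genes overlapped between the genotypes, as for 46.9% of all genes tested. Copies of this kind are alike in sequence, and how reads were divided among them is uncertain.

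Regulators of the maternal mRNA store fell where they were called. Of 29 tested genes of decay, storage and poly(A) control none rose and 10 fell, with a median of -0.44. Btg4, the adapter that brings the Ccr4-Not deadenylase to maternal mRNAs, was at 39.2, 45.9, 46.3 and 42.8 FPKM in Hira Het and 9.77, 9.28, 11.9 and 10.5 in Hira KO (log2 difference -1.97, standard error 0.12, adjusted p = 4e-06). The libraries of each genotype differed little and the genotypes lay far apart. Eif4enif1, which holds mRNAs in storage granules, was at 7.16, 7.78, 5.86 and 5.24 against 0.991, 2.73, 2.64 and 1.29 (-1.41, adjusted p = 0.00083), and the decapping factor Dcp1a at 4.69, 4.55, 5.01 and 3.36 against 0.80, 1.62, 1.14 and 0.94 (-1.35, adjusted p = 0.00014). The deadenylase subunits Cnot3, Cnot7 and Cnot8 and the poly(A) factors Papolg and Pabpn1l were also among the 10. Zar1, which binds stored mRNAs, had 248, 171, 119 and 159 FPKM against 31.3, 115, 105 and 66.4 (-1.24, adjusted p = 0.023), with KO 1 and KO 4 lowest, and it lost its call without Het 1 (-1.05), Het 2 (-1.23), KO 1 (-0.85) or KO 4 (-1.21). Dazl, a translational activator, was higher in each Hira KO library, at 32.6, 33.8, 42.5 and 40.1 against 103, 60.8, 51.9 and 79.5, with a difference of 0.93 that passed the limit without KO 2 (1.004) or KO 3 (1.08).

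Of 32 tested genes of meiotic arrest and resumption 1 rose and 7 fell, with a median of -0.58. Gpr3, the receptor that keeps cyclic AMP high and so holds the oocyte in prophase, had 12.6, 16, 11.7 and 7.25 FPKM in Hira Het and 0.501, 5.28, 3.28 and 1.01 in Hira KO (-2.06, adjusted p = 0.0032). Mos, the kinase that starts the MAP kinase cascade of maturation, had 459, 430.2, 369 and 388 against 141, 203, 213 and 207 (-1.12, adjusted p = 0.00042; -0.98 without KO 1), and the checkpoint kinase Bub1b 13.9, 14, 14.8 and 10.9 against 2.4, 5.11, 2.37 and 2.51 (-1.85, adjusted p = 0.0001). In these genes no Hira KO library reached the Hira Het range. The tissue plasminogen activator Plat, stored until maturation, had 113, 118, 66.3 and 70.4 FPKM against 4.99, 51.2, 11.4 and 9.28 (-2.67, adjusted p = 0.0035), with KO 2 far above the other Hira KO libraries. Cks2, a subunit of cyclin-dependent kinases, was the 1 gene that rose, at 27.5, 33.3, 51.2 and 37 against 164, 101, 160.2 and 134 (1.89, adjusted p = 0.00013). Ccnb1, the cyclin of meiotic entry, was at 171, 192, 222 and 180.0 against 83.8, 118, 109 and 102 FPKM, without overlap, and its difference of -0.89 missed the limit. Haspin, the kinase that marks H3 at centromeres, fell from 34.1 ± 5.67 to 7.34 ± 2.08 FPKM (mean ± SD, n = 4; -2.10, adjusted p = 4.9e-05).

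Of 49 tested genes of spindle, kinetochore and cohesin 1 rose and 2 fell, and the sign of their median (-0.13) turned to 0.023 on scaling to the reads of the listed genes. Kif23, the kinesin of the central spindle, was at 11.1, 11.1, 9.96 and 9.5 FPKM in Hira Het and 2.76, 2.91, 2.31 and 2.93 in Hira KO (-1.62, adjusted p = 9.4e-06), and Cenpt, a bridge from centromere to kinetochore, at 2.5, 2.19, 2.67 and 2.41 against 7.88, 7.33, 8.82 and 8.24 (1.40, adjusted p = 1.8e-05). The 4 libraries of each genotype were close together in both, and the changes were opposite.

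The largest rises at a mean of at least 10 FPKM joined genes of unlike function. Ifi27l2a, which interferon induces, had the highest log2 difference of all genes tested, with 0.428, 0.0514, 0.558 and 0.26 FPKM in Hira Het, of at most 14 reads, and 112, 74.5, 52.1 and 108 in Hira KO (6.00, adjusted p = 7.2e-07). Tceal8, next in size, was at 0.30, 0.116, 3.16 and 0.703 against 146, 88, 58.1 and 96.3 (5.70, adjusted p = 9.4e-06), with KO 1 highest and KO 3 lowest of the Hira KO libraries in both genes. Sycp3, a protein of the synaptonemal complex, which joins chromosomes in early meiotic prophase, was at 1.99, 1.94, 2.7 and 3.12 FPKM in Hira Het and 79.4, 47.5, 60.05 and 52.4 in Hira KO (log2 difference 4.13, standard error 0.18, adjusted p = 1.1e-06). Cldn6, a tight junction protein of early embryonic epithelium, was at 0.0467, 0.0758, 0.117 and 0.0958 against 11, 28.4, 16.3 and 25.3 (4.21, adjusted p = 3.7e-06), and its neighbour Cldn9 at 8.22, 6.73, 8.11 and 6.45 against 12.7, 46.8, 26.3 and 25.2 (1.65, adjusted p = 0.0021). KO 1 was the lowest Hira KO library for both claudins and still above all Hira Het libraries. Another claudin, Cldn4, fell. Of 10 tested claudins, cadherins and integrins 3 rose and 1 fell, with a median of -0.18. The small X-linked genes of the Tceal and Bex family, of which 3 of 4 tested rose, included Tceal8, Tceal9, at 1.85, 0.265, 0.615 and 1.72 against 42.5, 41.9, 47.5 and 31.8 (4.38, adjusted p = 3.7e-06), and Bex3, with 0.25, 0.0451, 0.0699 and 0.542 against 1.89, 5.16, 3.41 and 4.59 (1.92, adjusted p = 0.00019). Usp17lb and Usp17lc, deubiquitinases of a multicopy cluster whose reads may be shared, were at 0 to 0.128 FPKM in all Hira Het libraries. Hira KO libraries held 3.03, 26.7, 80.9 and 28.9 FPKM of Usp17lb (4.41, adjusted p = 0.00095) and 1.91, 5.82, 13.5 and 6.62 of Usp17lc (2.73, adjusted p = 0.00044), in the same order, with KO 1 lowest and KO 3 highest.

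Ferritin and Id genes, and Hsd17b10 and Cstb, belong to no list here and were chosen after their values were seen. Ftl1 (chromosome 7, 45457944 to 45459884), the light chain of ferritin, was measured at 39.7, 30.4, 39.3 and 50.3 FPKM in Hira Het and 628, 557, 574 and 704 in Hira KO (log2 difference 3.93, standard error 0.16, adjusted p = 7.2e-07). Its retrocopy Ftl1-ps1 had 11.7, 10.4, 11.4 and 15.4 against 190.1, 164, 171 and 209 (3.81, adjusted p = 7.2e-07) and moved from rank 696 to 20 per exon length. Reads of the parent and the copy can be exchanged, and their library order was the same in Hira KO. The heavy chain Fth1 rose less, at 41.1, 38, 37.4 and 45.4 against 135, 72.6, 65.3 and 126 (1.21, adjusted p = 0.0024), with KO 1 and KO 4 highest. Id1, Id2 and Id3 encode inhibitors of basic helix-loop-helix factors and are classic targets of BMP signals. Id1 had 1.12, 1.34, 0.468 and 0.679 FPKM in Hira Het and 29.8, 32.1, 25 and 21.3 in Hira KO (3.89, adjusted p = 1.2e-06), Id2 1.21, 0.676, 0.812 and 1.05 against 36.8, 18.1, 20.2 and 33.5 (3.81, adjusted p = 3.7e-06), and Id3 1.43, 1.07, 3.02 and 4.53 against 8.88, 26.4, 15.7 and 26.4 (2.53, adjusted p = 0.00068). All 12 Hira KO values of these 3 genes were above every Hira Het value of the same gene. Id4, the other Id gene, was not tested, at 0.060, 0.0812, 0.0503 and 0.0103 FPKM against 0.0267, 0.26, 0.0942 and 0.0764, with overlapping values. Hsd17b10, a mitochondrial dehydrogenase, had 4.43, 5.64, 6.59 and 6.7 against 117, 85.2, 93.4 and 83.9 FPKM (3.81, adjusted p = 7.2e-07), and Cstb, an inhibitor of cathepsins, 6.48, 5.14, 5.56 and 5.72 against 80.4, 63.9, 45.7 and 72.3 (3.28, adjusted p = 2.2e-06).

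**Figure D3:**
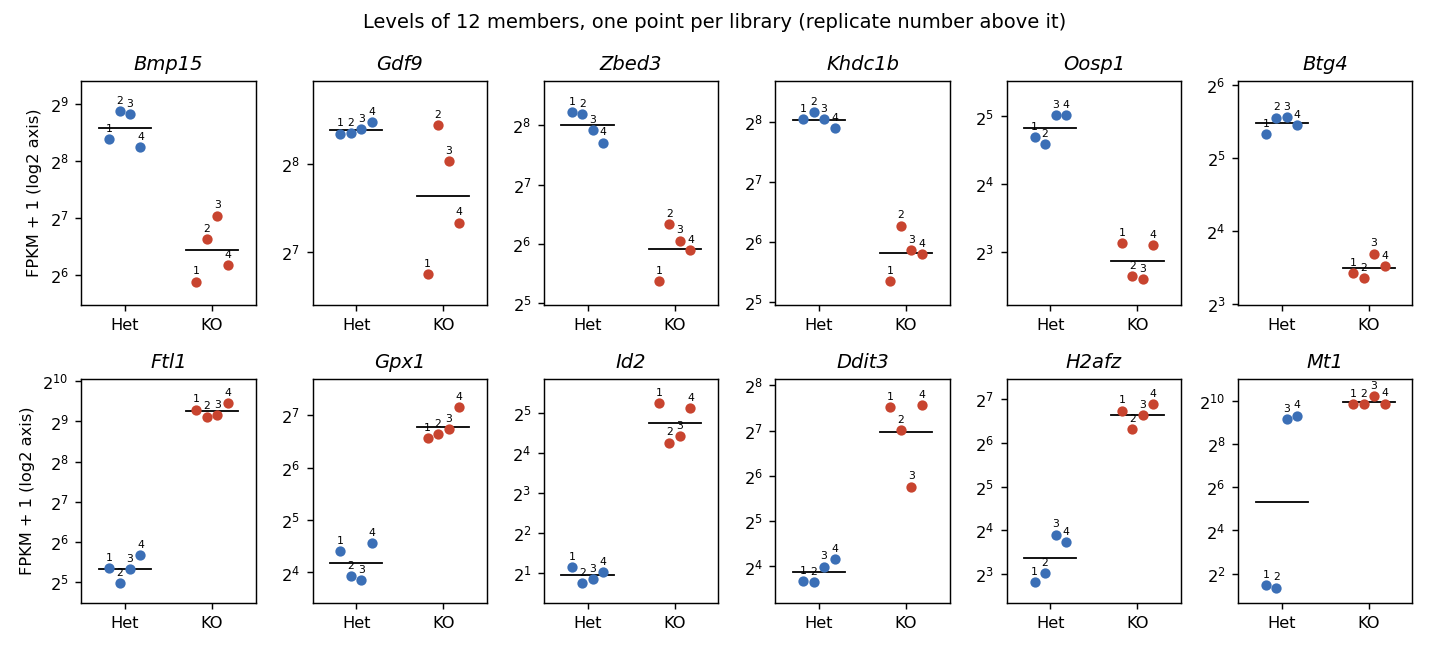
FPKM + 1 (y axis, log2 scale) of 12 genes in the 4 Hira Het and 4 Hira KO libraries, 1 numbered point per library, with a line at the mean of the log2 values. The Hira KO points lie above all Hira Het points for Ftl1, Id2 and Gpx1 and below them for Bmp15 and Btg4, and Mt1 shows Het 1 and Het 2 far below the other libraries.

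Genes of oxidative stress and glutathione handling were higher where they were called, with 1 exception. Of 24 tested genes of this list 7 rose and 1 fell, with a median of 0.48, and under median scaling 5 rose and 1 fell. Those that rose included the metallothionein Mt2, which passed the filter only through Hira KO and had to be higher. Gpx1, which reduces peroxides with glutathione, had 20.3, 14.2, 13.4 and 22.7 FPKM in Hira Het and 93.2, 98.4, 106 and 141 in Hira KO (log2 difference 2.58, standard error 0.20, adjusted p = 1.5e-05). Of 9 tested glutathione S-transferases 5 rose and none fell, and Gstt2, Gstm5, Gstp1 and Gstp2 were counted in both lists. Gstp1 had 12.4, 8.68, 11.8 and 16.9 against 34.6, 37, 33.2 and 38.5 (1.49, adjusted p = 0.00016) and Gstp2 2.06, 1.35, 1.09 and 1.97 against 15.6, 13.8, 11.6 and 13.6 (2.49, adjusted p = 4.6e-06). Reads can be exchanged among these neighbours and their pseudogene copy Gstp-ps, which rose as well (2.11, adjusted p = 3e-05). Gstm5 had 103, 80.3, 118 and 139 against 232, 191, 252 and 269 (1.11, adjusted p = 0.001; 0.97 without Het 2). The exception was Txnip, the inhibitor of thioredoxin, at 92.5, 108, 87.1 and 66 FPKM against 24.4, 31.6, 25 and 33.8 (-1.58, adjusted p = 0.00011), again without overlap.

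Subunits of oxidative phosphorylation encoded in the nucleus were more often higher than lower, by a margin that depended on the scaling. Of 75 tested 16 rose and 3 fell, against 5 and 4 under median scaling and 10 and 4 under quantile normalization. The median was 0.47 against -0.04 for all genes, and positive under each of the 19 alternatives (0.32 to 0.60). Among the abundant subunits, Ndufb11 of complex I had 97.3, 77.7, 98.9 and 116 FPKM in Hira Het and 223, 183, 212 and 226 in Hira KO (1.12, adjusted p = 0.00027; 0.97 under median scaling). Ndufa1 had 13.3, 11.5, 13.8 and 18.2 against 51.4, 34.6, 44.3 and 42.8 (1.55, adjusted p = 9.4e-05) and Cox6c of complex IV 9.35, 7.87, 9.59 and 12.4 against 32.6, 22.5, 24.6 and 30.2 (1.40, adjusted p = 0.00016). No Hira KO library of these genes lay within the Hira Het range. The largest differences were in tissue-restricted forms that Hira Het oocytes hardly held: Cox4i2, at 0.0463, 0.086, 0.111 and 0.0724 FPKM against 5.04, 4.57, 4.6 and 3.83 (2.35, adjusted p = 1.2e-06), and Ndufa4l2, at 0.756, 0.392, 0.799 and 0.607 against 3.75, 5.27, 7.65 and 4.42 (1.91, adjusted p = 5.7e-05). Both are known as forms of low oxygen. Both passed the filter only through Hira KO, so they had to be higher. The 3 that fell were Cox6a2, Ndufv1 and Atp5b.

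Among 15 tested genes of glycolysis and lactate 2 rose and 4 fell, with a median of -0.041 that was 0.094 on scaling to the reads of the listed genes, where 2 rose and 1 fell. Tpi1, triose phosphate isomerase, was at 21.7, 21.2, 16.5 and 18.2 FPKM in Hira Het and 6.88, 7.44, 4.08 and 9.5 in Hira KO (-1.40, adjusted p = 0.0006). Gapdh, a gene with many processed copies, was at 1.38, 1.28, 0.909 and 1.17 against 4.91, 6.31, 5.32 and 6.92 (1.65, adjusted p = 2.1e-05). Ldhb, the lactate dehydrogenase of the oocyte and its most abundant gene of this list, was at 331, 286, 292 and 337 against 219.8, 286, 301 and 241 (-0.26, adjusted p = 0.14) with overlapping values. Of 24 tested genes of the tricarboxylic acid cycle and one-carbon metabolism 1 changed, Glul, glutamine synthetase, at 1.41, 1.34, 1.05 and 1.05 FPKM against 8.24, 12, 12.3 and 10.3 (2.39, adjusted p = 3.7e-06). Of 16 tested genes of sterol and fatty acid metabolism 1 rose and 1 fell.

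Stress genes did not move as a block. Of 13 tested targets of Atf4 and genes of the integrated stress response 4 rose and 1 fell, and their median of -0.092 was 0.054 on scaling to the reads of the listed genes. Ddit3, a transcription factor of this response also called Chop, had 11.7, 11.6, 15 and 17 FPKM in Hira Het and 181, 127, 53.4 and 189 in Hira KO (log2 difference 3.09, standard error 0.36, adjusted p = 0.00014). Fgf21, a secreted hormone induced by Atf4 in liver, was at 0 to 1 reads in Hira Het libraries and at 47.7, 41.6, 15.2 and 20.01 FPKM in Hira KO, of 323 to 1195 reads (4.83, adjusted p = 5.8e-06). Nupr1, a small stress-induced nuclear protein, had 0.69, 0, 0.00792 and 0.0517 against 3.38, 2.52, 5.56 and 1.76 (1.82, adjusted p = 0.00056). Each Hira KO library exceeded each Hira Het library in these 3 genes. Fgf21, Nupr1 and Pycr1, the other gene that rose, had Hira Het means under 1 FPKM and passed the filter only through Hira KO. They therefore had to be higher. Ppp1r15a, which returns translation by removal of the phosphate from eIF2 alpha, fell instead, at 30.4, 29.2, 16 and 17 against 8.2, 18.4, 6.56 and 8.81 (-1.11, adjusted p = 0.015), and missed the limit without Het 1 (-0.97), Het 2 (-0.99) or KO 3 (-0.94). Cebpb was at 38.1, 22.8, 14.3 and 24 against 12.1, 68.8, 72.3 and 33.6 (0.68, adjusted p = 0.29), with KO 1 under all Hira Het libraries and KO 2 and KO 3 above them, and passed without KO 1 (1.2).

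The promoters of Fgf21, at chr7:45615491-45615740, and Nupr1, at chr7:126625471-126625720, both on the minus strand (RefSeq, GRCm38.p6), are printed for the composite element of CCAAT-enhancer binding proteins and Atf4, searched on either strand as TGATGNAA, with the match in capitals.
Fgf21: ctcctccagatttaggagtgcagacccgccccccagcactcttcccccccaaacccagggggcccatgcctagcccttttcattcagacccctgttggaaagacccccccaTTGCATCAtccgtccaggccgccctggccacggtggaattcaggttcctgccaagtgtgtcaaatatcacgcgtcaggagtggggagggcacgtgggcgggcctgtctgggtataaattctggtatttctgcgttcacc
Nupr1: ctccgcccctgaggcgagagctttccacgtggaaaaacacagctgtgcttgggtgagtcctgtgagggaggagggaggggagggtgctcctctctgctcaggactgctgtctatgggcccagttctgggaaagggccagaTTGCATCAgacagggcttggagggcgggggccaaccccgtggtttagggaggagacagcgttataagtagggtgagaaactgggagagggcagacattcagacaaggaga
Each held 1 match. At least 1 match was in 3.40% of all promoters and 2.03% of those of genes tested, in 3.56% of those of higher genes and 2.19% of those of lower genes.

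Chaperones of the endoplasmic reticulum and genes of the unfolded protein response tended the other way, with 1 of 23 tested up and 5 down and a median of -0.43. Creld2, a disulfide isomerase that this response induces, had 43, 38.8, 30.2 and 37.4 FPKM in Hira Het and 5.65, 10.8, 11.1 and 7.82 in Hira KO (-1.99, adjusted p = 7.1e-05). Derl3, of the degradation channel, had 39.4, 45.2, 39.7 and 35.3 against 8.24, 16, 12.9 and 17.1 (-1.53, adjusted p = 0.00032) and the disulfide isomerase Pdia4 3.96, 4.37, 3.43 and 3.08 against 0.712, 1.69, 1.11 and 1.05 (-1.15, adjusted p = 0.00038). No values overlapped. Dnajb9 was the 1 gene that rose, at 1.48, 2.32, 1.73 and 1.81 against 6.47, 6.6, 9.25 and 7.58 (1.58, adjusted p = 3.9e-05). Hspa5, the main chaperone of the compartment, was at 32.7, 38.2, 39.9 and 41.8 against 21.1, 48.1, 18.5 and 30.4 (-0.45, adjusted p = 0.17), with KO 2 above and the other 3 Hira KO libraries below the Hira Het range. Of 34 tested cytosolic heat shock proteins and chaperonins 1 rose and 2 fell, and the sign of their median (0.032) reversed under median scaling (-0.12) and quantile normalization (-0.045). Hspb1 rose (1.77, adjusted p = 0.00015) and Dnajb4 fell (-1.22, adjusted p = 8e-05), while Hspa8 was at 103, 102, 100.3 and 96.6 against 155, 177, 106 and 149 (0.52, short of the limit). Among 14 tested cytosolic tRNA synthetases and their scaffold 1 rose and 2 fell, with a median of -0.45, led by the scaffold subunit Eef1e1 at 9.28, 11.5, 12.9 and 10.6 against 2.6, 2.19, 4.26 and 1.85 FPKM (-1.73, adjusted p = 0.00011).

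Of the Hira complex, H3.3 genes and other histone chaperones 17 were tested, of which 2 rose and none fell, with a median of 0.063 that was -0.086 under median scaling, where 1 rose and 2 fell. H3f3b, 1 of the 2 genes of H3.3, was at 216, 222, 248 and 219 FPKM in Hira Het and 522, 419.9, 490.3 and 441 in Hira KO (1.04, adjusted p = 0.00013; 0.99 without KO 1 and 0.89 under median scaling, both short of the limit). H3f3a was at 21.4, 25.1, 30.6 and 25.9 against 38.1, 24.8, 20.1 and 35.7, overlapping, with a difference of 0.16 that was -0.0015 under quantile normalization. Both genes have processed copies. Npm1, nucleophosmin, was at 16.5, 16.8, 19.6 and 22.9 against 91.2, 50.7, 39.4 and 74.9 (1.64, adjusted p = 0.00059). The chaperone Asf1a, which hands H3.3 to Hira, was higher in each Hira KO library, at 34.7, 34.8, 34.6 and 32.8 against 45.6, 48.9, 87.8 and 52.7, with a difference of 0.71 (adjusted p = 0.012) under the fold limit. The partners of Hira were under the filter: Ubn1 had 311 to 567 reads in Hira Het and 193 to 318 in Hira KO, and Cabin1 393 to 671 and 118 to 194, at 0.286 ± 0.041 and 0.0864 ± 0.0175 FPKM.

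Of 32 tested histone genes 5 rose and 3 fell, with a median of 0.10 that was -0.05 under median scaling, where 4 rose and 4 fell. H2afz, the variant H2A.Z of promoters, was at 6.01, 7.16, 13.9 and 12.3 FPKM in Hira Het and 105, 78, 98.4 and 117 in Hira KO (log2 difference 3.27, standard error 0.25, adjusted p = 1.4e-05). Hist1h2ap, a replication-dependent H2A, was at 7.96, 1.77, 5.73 and 10.5 against 155, 100.5, 205 and 159 (4.52, adjusted p = 3.1e-05). The germline form Hist1h2aa fell, at 17.2, 15.4, 17.9 and 18.3 against 4.93, 2.88, 5.6 and 5.26 (-1.71, adjusted p = 7e-05). All 3 were without overlap, and histone copies that are nearly alike may share reads.

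General transcription genes gave few calls, and splicing genes rose at about the share of all genes tested. Of 51 tested genes of RNA polymerase II, Mediator and TFIID 1 rose and 3 fell, around a median of 0.014 that changed sign under median scaling (-0.13), quantile normalization and exon length. Polr2h, a small shared subunit, rose from 1.52 ± 0.188 to 5.17 ± 1.59 FPKM (1.26, adjusted p = 0.00037), and Med31 fell from 18.3 ± 2.02 to 6.34 ± 1.17 (-1.40, adjusted p = 7.4e-05) and Taf8 from 4.97 ± 0.491 to 1.68 ± 0.79 (-1.20, adjusted p = 0.001). Of 50 tested splicing factors 5 rose and 1 fell, or 10% and 2%, against 10.5% and 7.20% of all genes tested. Their median of 0.033 was -0.12 under median scaling, where 2 rose and 2 fell. Sf3b6 (1.26, adjusted p = 0.0013) and Lsm1 (1.24, adjusted p = 0.0011) were among those that rose. Of 44 tested proteasome subunits none rose and 1 fell. The proteasome median of -0.042 was the same as that of all genes to 2 decimals, and it turned to 0.055 on scaling to the reads of the listed genes.

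Of 25 tested genes of nuclear pore, importins and lamina 1 rose and 2 fell. Ran, the GTPase of nuclear transport, had 17.9, 13.7, 23.4 and 28.6 FPKM in Hira Het and 73.1, 71.6, 94.3 and 80.3 in Hira KO (1.92, adjusted p = 9.9e-05). Aaas, a nucleoporin, fell from 6.4 ± 1.51 to 2.28 ± 1.57 (-1.27, adjusted p = 0.0073). Of 30 tested cytoskeletal genes 5 rose and 1 fell, with a median of 0.20; under median scaling 1 rose and 2 fell, with a median of 0.05. Tuba1a, an alpha tubulin, had 0.856, 0.376, 0.24 and 0.326 against 3.51, 19.6, 10.9 and 8.32 (2.82, adjusted p = 0.00036), with KO 1 lowest and KO 2 highest of the Hira KO libraries, and Actg1, gamma actin, 20.4, 20.9, 24.8 and 22.6 against 31.4, 57.5, 76.1 and 45.6 (1.15, adjusted p = 0.0032; 0.95 without KO 3). Rdx, radixin, which ties actin to the membrane, was the 1 that fell, at 41.6, 49.6, 53.3 and 45.4 against 20.9, 15.6, 19.4 and 19 (-1.30, adjusted p = 7.1e-05).

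Of 8 tested imprinted genes 3 rose and 1 fell. Zrsr1, a retrocopy expressed from the paternal allele in somatic tissue and methylated in the oocyte, was at 0 to 7 reads in Hira Het and at 6.91, 6.47, 3.67 and 8.64 FPKM in Hira KO, of 160 to 387 reads (2.80, adjusted p = 9.4e-06). Mcts2, a retrocopy of the same kind, had 2.2, 1.19, 2.17 and 1.13 FPKM against 6.36, 6.73, 7.64 and 10.0 (1.71, adjusted p = 0.00011). Phlda2, a maternally expressed gene of the placenta, had 10.1, 7.81, 7.77 and 10.02 against 29.5, 26.6, 28.4 and 35.2 (1.64, adjusted p = 2.5e-05). Mest fell, at 8.76, 11.2, 8.08 and 5.59 against 0.732, 2.48, 5.55 and 1.07 (-1.61, adjusted p = 0.0064), with KO 3 just under the lowest Hira Het library. Of 9 tested genes of DNA methylation and imprint protection none rose and 2 fell. Dnmt3l, the partner of the de novo methylation enzymes in oocytes, had 5.21, 5.0, 3.19 and 3.68 against 0.825, 1.83, 1.85 and 1.18 (-1.13, adjusted p = 0.0011), and Zfp57, the zinc finger that keeps imprints, 73, 78.4, 67.6 and 71.8 against 52.4, 54.8, 34.7 and 57.2, a difference of -0.56 within the limit.

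Of 11 tested interferon-induced genes 2 rose and 2 fell, with a median of -0.48. Those that rose were Ifi27l2a (6.00, adjusted p = 7.2e-07) and Xaf1, which had 0.113, 0.142, 0.0448 and 0.183 FPKM in Hira Het and 1.86, 1.92, 2.39 and 3.31 in Hira KO (1.57, adjusted p = 4.5e-05). The transcription factor Irf1 had 24.5, 24.6, 18.2 and 19.5 against 5.78, 11.6, 5.05 and 7.31 (-1.48, adjusted p = 0.00063), and the oocyte-expressed Oas1c 104, 116, 76 and 76.1 against 17.1, 56.1, 54.7 and 24.6 (-1.41, adjusted p = 0.0096). Ifi27l2a and Xaf1 passed the filter only through Hira KO, so they had to be higher. Irf1 and Oas1c, which were above 1 FPKM in Hira Het, both fell. Of 11 tested genes of the p53 pathway and Bcl2 family none rose and 1, Bcl2l10, fell. Of 21 tested genes of autophagy and lysosome none fell and 2 rose (9.52%, against 10.5% of all genes tested). Those that rose were Gabarap (1.84, adjusted p = 2e-05) and the protease Ctsl (1.67, adjusted p = 0.00017), which passed the filter only through Hira KO.

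Carriers and membrane traffic held more falls than rises. Of 47 tested solute carriers 1 rose and 6 fell, with a median of -0.54, and on scaling to the reads of the listed genes 1 rose and 3 fell. Slc23a3 had 2.63, 2.08, 3.15 and 3.78 FPKM in Hira Het and 21.7, 23.1, 23.7 and 24 in Hira KO (2.65, adjusted p = 2.8e-06), with the 4 Hira KO libraries nearly equal. The zinc carrier Slc30a3 had 13.1, 14.6, 7.34 and 6.71 against 0.324, 4.35, 4.43 and 0.984 (-1.88, adjusted p = 0.0079), lowest in KO 1 and KO 4. Of 34 tested Rab and Arf genes, the small GTPases of vesicles, 1 rose and 6 fell, with a median of -0.38. Rab3d had 11.6, 12.1, 7.35 and 7.34 against 0.27, 2.54, 3.78 and 0.767 (-2.06, adjusted p = 0.002) and Rab7 11.7, 13.4, 8.9 and 8.29 against 1.64, 4.07, 5.09 and 2.56 (-1.46, adjusted p = 0.0015); its retrocopy Rab7-ps1 fell with it (-1.70, adjusted p = 0.0007) and the reads of the pair may be shared. Rab25, of epithelial cells, was the 1 that rose (1.56, adjusted p = 0.00022). Zfp genes, which encode zinc finger proteins, had no stable balance. Of 95 tested 5 rose and 8 fell, shares of 5.26 and 8.42%, with a median of -0.28; on scaling to the reads of the listed genes 6 rose and 3 fell, and per exon length, where 184 were tested, 24 and 13. Zfp82 had 0.472, 0.452, 0.539 and 0.463 against 8.71, 8.98, 3.94 and 6.27 (2.37, adjusted p = 3.1e-05) and Zfp296 82.3, 72.3, 45 and 49.9 against 10.3, 31.5, 18.9 and 23.5 (-1.58, adjusted p = 0.0028).

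**Figure D4:**
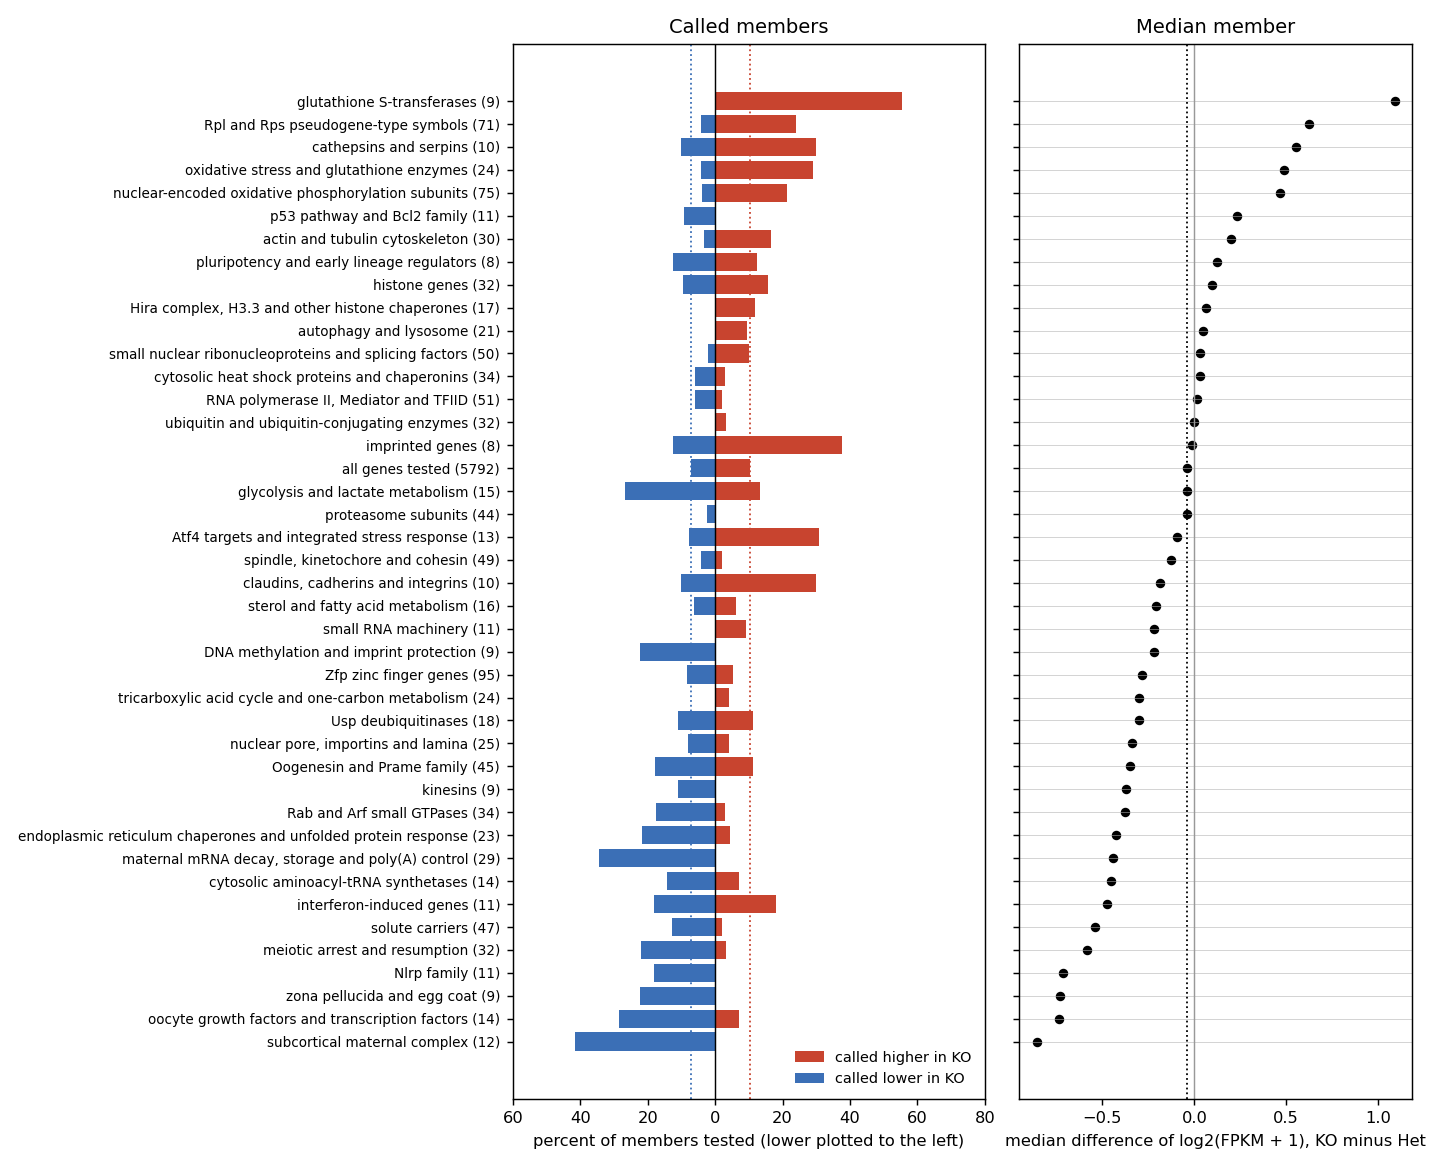
For each gene list or family with at least 8 members tested (number in brackets), the percent of tested members higher (to the right) and lower (to the left) in Hira KO, and the median log2 difference of its members; dotted lines mark the shares and the median of all 5792 genes tested. The subcortical maternal complex has the lowest median (-0.86) and glutathione S-transferases the highest (1.09).

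Most classes of transcript outside the protein-coding set rose more often than they fell, and unprocessed pseudogenes, with 9 of 37 in each direction, did not. Of 4351 tested protein-coding genes 360 rose (8.27%) and 335 fell (7.7%). Of 891 processed pseudogenes 143 rose (16%) and 47 fell (5.27%), of 188 lincRNAs 33 rose and 13 fell, and of 80 antisense RNAs 17 rose and 3 fell. These counts, and those by gene span, exon structure and chromosome below, include genes that only 1 genotype carried over the filter. The filter fixed the direction of 251 higher and 56 lower genes, and the classes were not counted without them. Of the reads of listed genes, protein-coding genes took 93.7, 93.7, 93.5 and 93.3% in Hira Het and 92, 92.8, 92.9 and 92.1% in Hira KO. Processed pseudogenes took 2.21, 2.11, 2.26 and 2.4% and 3.15, 2.85, 2.62 and 3.16%. Both shares were without overlap (two-sided exact permutation p = 0.029 each, the least that 4 against 4 can give; 0.0476 after adjustment over 20 measures). The lincRNA share was 1.68% in both genotypes. Of 71 tested Rpl and Rps pseudogenes 17 rose and 3 fell, and reads of these copies may come from their parent genes; 8 of the genes tested had the same values as another in all 8 libraries.

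Among lincRNAs, Gm26909 had 1.82, 1.53, 4.61 and 5.28 FPKM in Hira Het and 47.8, 38.1, 33.3 and 51.1 in Hira KO (3.43, adjusted p = 3e-05) and Gm43263 17.2, 22.5, 20.1 and 20.4 against 192, 108, 74.6 and 116 (2.48, adjusted p = 6.1e-05). C86187 fell, at 107, 129, 114 and 79.1 against 10.3, 17.8, 27.7 and 14.3 (-2.61, adjusted p = 7.3e-05). No library of these 3 lay in the range of the other genotype. The processed pseudogene Gm45007 was at 0 to 1 reads in Hira Het and at 13.1, 8.0, 7.0 and 11.8 FPKM, of 34 to 75 reads, in Hira KO (3.35, adjusted p = 3.2e-06). Gas5, the host gene of small nucleolar RNAs, had 1.22, 1.15, 1.92 and 1.8 against 9.0, 4.39, 4.76 and 6.34 (1.47, adjusted p = 0.00042). The antisense gene Gm15879 had 0 to 2 reads in Hira Het and 254 to 341 in Hira KO (2.33, adjusted p = 1.6e-06); counting by strand is not stated and the library kit does not mark strand, so it cannot be told apart from an overlapping partner.

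The share of genes called differed with the length and exon structure of a gene. With the genes tested cut by span into 5 classes of like size, from the shortest to the longest, 18.8, 18.1, 9.77, 3.54 and 2.07% rose, against 5.26, 8.28, 8.12, 8.2 and 6.13% that fell. The median difference went from 0.32 in the shortest class to -0.28 in the longest. For protein-coding genes alone the share that rose went from 26.3% of 171 genes in the shortest class to 2.12% of 1132 in the longest. Counted per exon length, where 10276 genes passed 1 FPKM and 13.0% rose and 10.1% fell, the share that rose still went from 21% to 7.88% and the share that fell from 6.81% to 11.3%. Of 1215 genes with 1 exon block 208 rose and 77 fell, and of 1103 with over 10 blocks 29 rose and 94 fell. The median span of a read's gene was 17323, 17709, 17709 and 16774 bp in the Hira Het libraries and 15318, 15645, 15588 and 14864 bp in the Hira KO libraries. Whether RNA quality or priming differed between the genotypes was not tested.

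**Figure D5:**
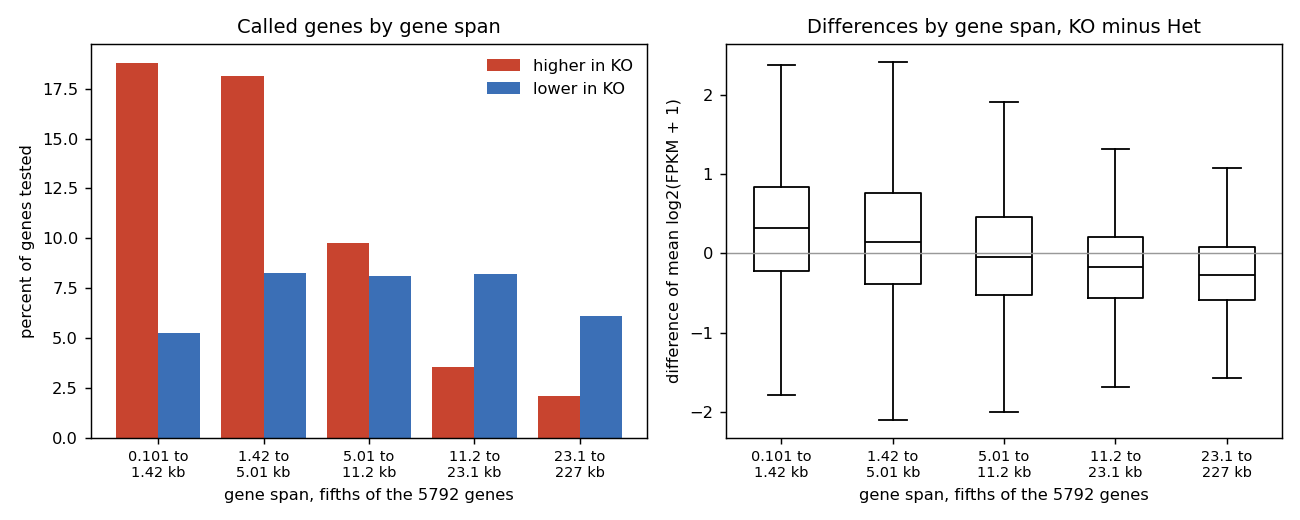
Percent of genes tested that rose and that fell in Hira KO (left, bars) and the log2 differences (right, boxes from the first to the third quartile with the median as a line, whiskers to 1.5 times the box, points beyond them left out), in 5 classes of gene span from shortest to longest. The share that rose declines from 18.8% to 2.07%, and the share that fell is between 5.26% and 8.28%.

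Hira KO libraries also spread their reads over more genes. The listed genes held 74.5% ± 0.23 of a library's scaling total in Hira Het and 67% ± 1.1 in Hira KO (SD, n = 4; two-sided exact permutation p = 0.029, 0.0476 adjusted), so a larger part of Hira KO reads lay outside them. At the depth of the smallest library, 18694 to 19179 genes were expected with at least 1 read in Hira Het and 21313 to 21677 in Hira KO. Genes other than protein-coding numbered on average 4801 and 6096 among these. The exact permutation p was 0.029 for each count, 0.0476 adjusted.

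By chromosome, the share of tested genes that rose was highest on the X chromosome, with 40 of 229 (17.5%) and 17 lower, the Tceal and Bex genes among them. Within 5 Mb of Hira on chromosome 16, 44 genes were tested, of which 3 rose and 2 fell. A RefSeq promoter was at hand for 3596 genes, 62.1% of all tested, but for 281 of the 606 higher and 274 of the 417 lower genes. The promoters of higher genes held a median of 9 CpG and those of lower genes 13, against 15 for all. The antioxidant response element core TGACNNNGC, on either strand, was in 13.2% of the promoters of higher genes, 7.66% of those of lower genes and 12.5% of all tested, which are descriptions of these windows of 250 bases.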

How the data were processed

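Poly(A) RNA of 4 Hira Het and 4 Hira KO GV oocyte libraries was amplified by Smart-seq2 and sequenced by the authors, who trimmed the reads, aligned them with STAR 2.5.3a to mouse mm10 (GRCm38) and quantified them in Partek. The deposited values are FPKM over the whole gene span, to which the authors had added 0.01; this constant was subtracted. Reads per gene were estimated from the step that 1 read makes in a library, and 82.1 to 83.9% of low values were whole within 0.02 of a read. Exon lengths came from GENCODE M21, with which 93.8% of shared symbols had the same coordinates, and 97.3% of tested genes had one. All 8 columns belonged to the samples of the comparison, and columns of other samples numbered 0. The authors' other tables and the chromatin files of the series were not used here.

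log2(FPKM + 1) of the 5792 genes at a mean of 1 FPKM or more was fitted with limma 3.58.1 in R 4.3.3, with genotype as the only term, all 8 libraries and Benjamini-Hochberg adjustment over all of them; all adjusted p of genes are from this fit. The study's methods name a gene-specific analysis in Partek, which was not used here. Exact permutation over the 8 libraries, two-sided, gave the p of shares and counts per library. Tables and plots were made in Python 3.11.15 with pandas 2.3.3, matplotlib 3.10.9, scipy 1.17.1 and numpy 2.4.6. The fit was tested on simulated data before use. Genes named in the text were the 12 called genes with the largest rise and fall at a mean of at least 10 FPKM without overlap, up to 4 called and the 2 most abundant members of each list or family, the 20 highest per exon length, up to 3 called genes per non-coding class and direction, the 5 with the largest spread per genotype, and the Hira list; part of these are described. Ftl1, Fth1, Id1, Id2, Id3, Id4, Inha, Inhba, Fshr, Ptgs2, Hsd17b10, Cstb and the further called members that are named without values were chosen after their values were seen. Members and lists were chosen with earlier results of these data known. Alternatives were another pseudocount, filter and scaling, exon length, a ratio of means, no fold limit, a trend, a replicate block and each library left out.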

Additional observations from a re-analysis of the deposited data

Results flagged for a closer look

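In 9 of 328 groups of 4 libraries examined (2.74%), 1 library stood further from the others than the 95% limit of Dixon's test allows, where chance alone flags about 1 in 20. Of these 6 were in Hira KO and 3 in Hira Het, and 3 of the 6 were in KO 3. Plat was at 51.2 FPKM in KO 2 and at 4.99 to 11.4 in the other Hira KO libraries. Bub1b, also in KO 2, was at 5.11 FPKM against 2.37 to 2.51. In KO 3, Nlrp4a was at 6.22 FPKM against 4.71 to 4.96, Mt1 at 1167 against 903 to 925, and Asf1a at 87.8 against 45.6 to 52.7. Mos was at 141 FPKM in KO 1 and at 203 to 213 in the other Hira KO libraries. In Hira Het, Nupr1 was at 0.690 FPKM in Het 1 against 0 to 0.0517, Asf1a at 32.8 in Het 4 against 34.6 to 34.8, and Gm45007 at 0.213 in Het 2 and at 0 in the others.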

How the results depend on the processing

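The 606 higher and 417 lower genes became 312 and 266 at a mean of at least 5 FPKM, where fewer genes were tested, 1334 and 1039 per exon length, where more were, and 1485 and 1521 with no fold limit. Lower genes numbered 796 with a pseudocount of 0.1, 794 with the fold taken as a ratio of group means, which allows low genes a larger fold, and 627 under median scaling; the cause of the last was not tested. Leaving out 1 library gave 543 to 651 higher genes and 312 (without KO 1) to 541 (without KO 2) lower genes. The 100 genes with the most reads differed in their share of the reads of listed genes by -1.89 to -1.10 percentage points over the libraries left out. The difference in the share of the scaling total on listed genes was -7.87 to -7.11. With 144 genes described and 2707 values under 19 alternatives, 2610 kept direction and side of the limit, 63 lost the call, 30 gained it and 4 changed sign: Ooep under median scaling (-0.023), without KO 1 (-0.042) and without KO 4 (-0.0047; -0.042 to 0.32 over the libraries left out), and H3f3a under quantile normalization (-0.0015). Beside the libraries left out, calls ended by scaling or filter were those of Actg1 (0.997), Cd68 (0.91), Figla (0.86), Gstm5 (0.96), H3f3b (0.89) and Ndufb11 (0.97) under median scaling, of Actg1 (0.98) and Figla (0.96) under quantile normalization, of Khdc3 (-0.97), Mos (-0.97), Obox5 (-0.86), Ppp1r15a (-0.97), Serpine2 (-0.88) and Tle6 (-1.15) on scaling to the reads of the listed genes, of Tle6 (-0.97) and Obox5 (-0.99) with the ratio of means, and of Nobox, Ppp1r15a, Tle6 and Zar1 without the filter on low values; the cause was not tested. Calls gained by scaling were those of H1foo (-1.05), Tcl1 (-1.10), Nlrp14 (-1.004) and Ccnb1 (-1.04) under median scaling, of Dazl (1.08) on scaling to the reads of the listed genes, and of Mt1, as given with its values. In lists of few calls the balance of higher against lower members became even or turned under a scaling or per exon length for heat shock proteins, tRNA synthetases, the tricarboxylic acid cycle, autophagy, spindle genes, nuclear pore, proteasome, Obox and small RNA genes, and for cathepsins with serpins. Of 44 lists and families, 20 kept the sign of their median under every alternative. The shared replicate numbers did not pair the libraries: deviations from the group means correlated at -0.41, 0.38, -0.12 and 0.40 for numbers 1 to 4. With the replicate block 605 genes were higher and 411 lower, and Tle6 and Zar1 lost their calls. Over all pairs, Het 1 and Het 2 correlated positively with KO 2 and KO 3 (0.14 to 0.45) and negatively with KO 1 and KO 4. Het 3 and Het 4 correlated positively with KO 1 and KO 4 (0.20 to 0.48) and negatively with KO 2 and KO 3. Deviations from a group mean cancel within a genotype, so these signs depend on each other and are not separate observations. What these libraries share was not tested. An alternative without mitochondrially encoded genes was not run, as the table lists none. Depth limited genes at a few reads, of which a count of 0 allows up to 3.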

Other observations

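Of 10 tested cathepsins and serpins, proteases and protease inhibitors taken by symbol, 3 rose and 1, Serpine2, fell. Ctsl and Serpinb1a, among those that rose, passed the filter only through Hira KO and had to be higher. Serpinb1a, an inhibitor of neutrophil proteases, was at 0.15, 0.154, 0.0995 and 0.103 FPKM in Hira Het and 3.66, 2.6, 2.35 and 2.02 in Hira KO (1.68, adjusted p = 2.6e-05 by limma), and Serpinb3a at 3.01, 3.56, 4.7 and 3.46 against 9.54, 9.89, 12.2 and 10.9 (1.32, adjusted p = 8.7e-05 by limma). Of 11 tested genes of small RNA pathways 1 rose, Mael, which silences transposons in germ cells, at 1.65, 1.74, 1.43 and 1.64 against 7.42, 4.0, 3.51 and 5.01 (1.15, adjusted p = 0.00088 by limma; 0.98 and short of the limit without KO 1), and none fell. No value of these 3 genes was shared between the ranges of the genotypes. Eif1a, 1 of 3 tested copies of a translation initiation factor, rose at 0.0632, 0.0995, 0.246 and 0.31 against 2.05, 1.63, 1.91 and 1.96 (1.29, adjusted p = 3.7e-05 by limma). Of 18 tested Usp deubiquitinases 2 rose, both of the Usp17-like cluster, and 2 fell, Usp46 and Usp39. Eif1a and the Usp17-like genes passed the filter only through Hira KO, so they had to be higher.

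Besides Mt1, the transcript of largest spread in Hira Het was Gm37376, a locus marked for experimental check in the annotation, at 4.39, 1.89, 13 and 25.3 FPKM in Hira Het and 58.6, 49.2, 62.1 and 45.4 in Hira KO (2.64, adjusted p = 0.0041 by limma). Het 3 and Het 4 lay between Het 1 and Het 2 and the Hira KO libraries, without overlap.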
